A study of Mus musculus with 12 samples.

Results

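The genes described here are 10 genes of meiotic chromosomes: Zcwpw1, Prdm9 and Spo11, of the sites and breaks at which meiotic recombination starts, Hormad1, Sycp2 and Sycp3, of the chromosome axis, and Sycp1, Syce1, Syce2 and Tex12, of the synaptonemal complex. They were named as members from textbook function together with earlier results of the same arrays, so their differences between the groups are given as a description and without a test. All 10 were measured, among 23102 genes in all, through 135 probesets that the platform annotation gives to 1 symbol each. On each array a gene was given the median log2 value of those probesets.

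The series compared oral tumours of C57BL/6 × FVB F1 mice that had received tamoxifen by intraperitoneal injection, and asks how a viral transgene alters the expression profile of a RAS tumour. The 6 tumours labelled KR expressed RAS. The 6 labelled KHR expressed RAS and a transgene written iHPV, for which the labels name E6 of the human papillomavirus (HPV). Each tumour gave 1 Affymetrix Mouse Gene 2.0 ST array. No label gives the promoter behind the transgenes, the alleles, or the age and sex of the mice. None says that the tumours came from separate animals either, so a p-value here speaks of the spread among these 12 arrays, which may be technical. Keratinocyte markers were bright on every array: Krt5, the keratin of the basal layer, averaged 13.19 (KR) and 13.17 (KHR).

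In meiosis, homologous chromosomes pair, are cut by the Spo11 nuclease and exchange DNA. In mice the cut sites are chosen by Prdm9, which binds DNA through zinc fingers and writes histone methylation marks that Zcwpw1 reads. The chromosome axes, built on meiotic cohesin with Sycp2, Sycp3 and Hormad1, are then zipped together by the transverse filament Sycp1 and by central element proteins such as Syce1, Syce2 and Tex12. Most of these genes are kept silent in body cells by methylation of CpG-rich promoters and by a repressor complex that holds Mga, Max and E2f6.

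The deposited table has no detection call. As a reference for a silent gene, 1388 olfactory and vomeronasal receptor genes were used, which serve smell and pheromone sensing and are not known as genes of the mouth lining. Their 95th percentile lay between 4.94 and 5.52 over the 12 arrays (log2 level) and their median between 3.98 and 4.25. A gene is called above the reference on an array where it exceeded that array's 95th percentile.

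Of the 10 genes, 1 was silent in KR and expressed in KHR tumours by this measure. Zcwpw1 was below the reference on all 6 KR arrays and above it on all 6 KHR arrays, a pattern held by 13 of 23102 genes (0.0563%). With the mean or median polish in place of the median over probesets it exceeded the reference on at least 1 KR array, and 0 members held the pattern. Syce2 was above the reference in both groups and stood higher in KHR tumours. Prdm9 was above it on all 12 arrays, with overlapping groups. Counted by group, 3 of the 10 were above it on all KHR arrays and 2 on all KR arrays, where 42.7% and 41.1% of all genes were. Syce1, Sycp1, Sycp2, Tex12 and Spo11 were below it on all 12 arrays, as were 43.4% of all genes. Sycp3 exceeded the reference on 2 KHR and no KR arrays, and Hormad1 on 3 KR arrays and 1 KHR array. In the limma fit over all genes, 2 members passed as higher and none as lower, where 2.71% of all genes passed as higher and 1.03% as lower (3.74% in either direction; adjusted p under 0.05). Since the members were chosen with this contrast in view, nothing is read from that count. The groups did not overlap for the same 2 members, Zcwpw1 and Syce2, while all KHR arrays lay above all KR arrays for 1.83% of all genes and below them for 0.84%, or 2.67% in all. The median difference over the 10 members was 0.17 on the log2 scale, against 0.0045 over all genes.

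**Figure D1:**
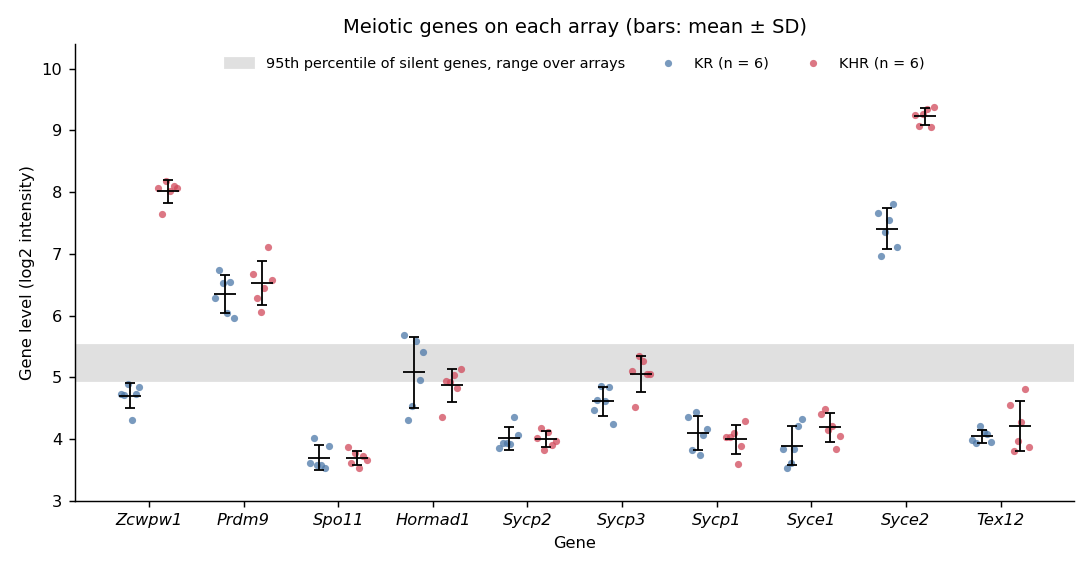
Level of each gene (log2 intensity, vertical axis) on each of the 6 KR and 6 KHR arrays, with the group mean and SD as bars and, in grey, the range over arrays of the 95th percentile of silent genes (4.94 to 5.52). Zcwpw1 crosses the grey band between the groups, Syce2 starts above it, and most other genes stay below it in both groups.

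Sequences ahead of the genes are shown for the 2 members that stood apart between the groups. They are also shown for the other 4 whose windows hold CACGTG, to show where that motif lies. All of these 4 were below the reference on most or all arrays. The sequences were taken from RefSeq's promoter windows on GRCm38.p6, which held 9 of the 10 members. The 150 bases before the first base of the annotated gene are given, 5′ to 3′ on the gene's strand (76 for Zcwpw1, whose window starts there). Both starts of Zcwpw1 that have a window lie inside the annotated gene. Its 76 bases are thus the far end of 1 window and hold 1 of the 13 CpG counted in that window below. The other window of Zcwpw1 lies within the gene and is not shown. Capitals mark CACGTG, the E-box that Mga and Max are known to bind and that reads the same on both strands, and GCGGGAA or its reverse complement TTCCCGC, a core of E2F sites. CCAAT, of NF-Y, was searched on both strands as well.
Zcwpw1 is shown at chr5:137787081-137787156 (plus strand), Syce2 at chr8:84871961-84872110 (plus), Sycp1 at chr3:102936101-102936250 (minus), Sycp3 at chr10:88459437-88459586 (plus), Tex12 at chr9:50561269-50561418 (minus) and Hormad1 at chr3:95559527-95559676 (plus).
Zcwpw1: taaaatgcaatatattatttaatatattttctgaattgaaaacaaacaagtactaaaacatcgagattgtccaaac
Syce2: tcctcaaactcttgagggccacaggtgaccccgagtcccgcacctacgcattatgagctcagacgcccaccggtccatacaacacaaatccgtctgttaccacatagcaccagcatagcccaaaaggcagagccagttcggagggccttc
Sycp1: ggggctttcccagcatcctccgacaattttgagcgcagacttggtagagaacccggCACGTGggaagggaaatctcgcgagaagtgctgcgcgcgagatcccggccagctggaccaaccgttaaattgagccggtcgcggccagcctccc
Sycp3: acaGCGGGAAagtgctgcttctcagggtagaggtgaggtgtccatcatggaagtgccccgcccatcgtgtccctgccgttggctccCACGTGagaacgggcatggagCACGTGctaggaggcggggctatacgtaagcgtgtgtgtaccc
Tex12: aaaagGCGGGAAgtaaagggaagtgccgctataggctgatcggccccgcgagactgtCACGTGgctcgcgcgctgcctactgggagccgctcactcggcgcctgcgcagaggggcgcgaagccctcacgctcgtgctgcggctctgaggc
Hormad1: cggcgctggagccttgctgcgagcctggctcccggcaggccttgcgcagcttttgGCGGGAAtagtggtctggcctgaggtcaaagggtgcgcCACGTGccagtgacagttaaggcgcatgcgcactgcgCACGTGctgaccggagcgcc
RefSeq gives some genes several starts, each with a window. Over the 250 bases before a start, CACGTG occurred in 6 of the 13 windows of the 9 members and in 6.02% of all 32851 promoter windows. Counted by gene, with a match in any window, it occurred in 5 of the 9 members and in 6.86% of 27025 genes. GCGGGAA occurred in 6 of the 13 windows and in 3.82% of all windows, or in 5 of the 9 members and in 4.38% of genes. CCAAT occurred in 1 window, of Prdm9, and in 33.8% of all windows. Syce2, Sycp3, Tex12 and Hormad1 held both of the first 2 motifs in 1 window. Neither window of Zcwpw1 held any of the 3 motifs, nor did the windows of Syce1 and Sycp2, which were below the reference on all 12 arrays. The Syce2 window with both motifs belongs to the later of its 2 annotated starts, so both motifs lie inside the annotated gene and are not in the stretch printed above, and the earlier window held none. CACGTG was present ahead of some genes that were below the reference throughout (Sycp1, Tex12) and absent ahead of others (Syce1, Sycp2). It was in 1 window of Syce2 and in neither of Zcwpw1. A match is a run of letters and not a measured site, and any part of these motifs in the levels was not tested.

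CpG pairs were counted in the same windows. Zcwpw1 had 13 and 16 CpG in its 2 windows and Syce2 11 and 24, against a median of 6 over all windows. Of the low genes, Tex12 had 20, Hormad1 19, Sycp1 17, Syce1 13, Sycp3 12 and Sycp2 7. Prdm9 had 9 and 13. Every window of the 9 members thus held more CpG than the median window, and the counts of the 2 genes that stood apart lay within the range of the rest except for the 24 of Syce2. DNA methylation was not measured here.

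Zcwpw1 encodes the reader of the histone marks that Prdm9 writes (chr5:137787157-137822621). Its level ran from 4.31 to 4.89 on the KR arrays, with a median of 4.73, and from 7.65 to 8.18 on the KHR arrays, with a median of 8.07. Every KHR array lay more than 2 log2 units above every KR array. The means were 4.70 ± 0.21 and 8.01 ± 0.18 (SD, n = 6 each), a difference of 3.31 ± 0.12 (SE of limma), or 9.93-fold on the scale of the intensities. It ranked 4 of 23102 genes by that difference. Its KR level was below the reference on all 6 arrays, though 85.5% of silent genes had a lower KR mean. The size of the difference is therefore not exact. The spread between KHR arrays was small, and the lowest, KHR 2, stood at 7.65 with the next at 8.02.

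Most probesets of Zcwpw1 separated the groups. Of 17, 13 had all KHR arrays above all KR arrays, where 1.09% of all probesets did, with differences from 1.91 to 5.26. Probeset 17443704 moved furthest, from 4.70 ± 0.69 to 9.95 ± 0.14 (SD, n = 6 each). Above the probeset reference (the 95th percentile of probesets of the silent genes), 13 were seen on all KHR arrays and 8 of these on no KR array. Probesets 17443703 and 17443706 were above it on 5 and 4 of the KR arrays, at KR means of 6.22 and 6.19. The 4 whose groups overlapped were the first 2, the fifth and the last in order of identifier. The last, 17443708, was at 5.09 ± 0.44 and 4.56 ± 0.45 and below the probeset reference on all 12 arrays. The deposited tables do not place probesets within the gene, so it is not known which exons these are.

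Prdm9, the methyltransferase that chooses recombination sites (chr17:15543072-15564374), was above the reference on all 12 arrays. With the 99th percentile of silent genes as the reference, it was above on all KHR arrays but not on all KR arrays. Its level ran from 5.95 to 6.74 on KR arrays (median 6.41) and from 6.07 to 7.12 on KHR arrays (median 6.51). The groups overlapped, with means of 6.35 ± 0.31 and 6.53 ± 0.36 (SD, n = 6 each) and a difference of 0.18 ± 0.18 (SE). The gene was well above the silent median, and 99.6% of silent genes had a lower KR mean. Its 13 probesets were uneven: 5 were above the probeset reference on all 12 arrays and 1 on none, and their KR means ran from 3.79 to 8.54. None had groups that did not overlap. Summarised by median polish the difference of Prdm9 was -0.09, and by the mean of its probesets -0.05, so its sign was not fixed.

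Spo11, the nuclease that makes the breaks (chr2:172977379-172993576), was among the dimmest members. It ran from 3.53 to 4.01 on KR arrays (median 3.60) and from 3.53 to 3.87 on KHR arrays (median 3.69), and the means were 3.70 ± 0.20 and 3.69 ± 0.12 (SD, n = 6 each). Only 8.79% of silent genes had a lower KR mean. Of its 15 probesets, 13 were below the reference on all 12 arrays.

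Syce2, a central element protein of the synaptonemal complex (chr8:84872111-84887446), was the brightest member in both groups. Its level ran from 6.96 to 7.80 on KR arrays (median 7.45) and from 9.05 to 9.38 on KHR arrays (median 9.26). The lowest KHR array was above the highest KR array by more than 1 log2 unit. The means were 7.41 ± 0.33 and 9.23 ± 0.14 (SD, n = 6 each), a difference of 1.82 ± 0.14 (SE), or 3.53-fold, which ranked 24 of 23102. Unlike Zcwpw1, it was above the reference on every KR array. No silent gene had a KR mean as high.

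Its 8 probesets fell into 2 sets. In 5, with KR means from 7.43 to 8.67, all KHR arrays lay above all KR arrays by close amounts, from 1.65 to 2.09 between the means. The other 3 were below the probeset reference on all 12 arrays, with KHR means from 3.43 to 4.56, and differed by 0.13 to 0.87. The gene value, as a median, rests on the bright set, and with the mean over all 8 probesets the difference was 1.39.

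Syce1 and Tex12, which join Syce2 in the central element, stayed low. Syce1 (chr7:140777229-140787854) ran from 3.54 to 4.33 on KR arrays (median 3.84) and from 3.83 to 4.49 on KHR arrays (median 4.18). Its means were 3.89 ± 0.32 and 4.19 ± 0.24 (SD, n = 6 each), a difference of 0.29 ± 0.15 (SE), and the groups overlapped. One of its 13 probesets, 17497668, had all KHR arrays above all KR arrays, by 0.86, and 9 were below the probeset reference on all 12 arrays. Another, 17497672, was above it on 5 KR and 6 KHR arrays, at means of 6.41 and 6.88. Tex12 (chr9:50557148-50561268) ran from 3.94 to 4.20 on KR arrays (median 4.04) and from 3.80 to 4.81 on KHR arrays (median 4.12), with a difference of 0.16 ± 0.16 (SE). Its KHR values were spread widely, KHR 5 at 4.81 and KHR 1 at 4.54 being the highest, and 5 of its 6 probesets were below the reference on all arrays.

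Sycp1, the transverse filament that spans the complex (chr3:102818499-102936100), stayed at the level of the silent genes. It ran from 3.74 to 4.44 on KR arrays (median 4.12) and from 3.60 to 4.30 on KHR arrays (median 4.04), a difference of -0.10 ± 0.14 (SE). None of its 8 probesets separated the groups. One, 17408623, was above the reference on all 12 arrays, at 7.40 and 7.51, while 5 were below it on all of them.

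Of the axis genes, Sycp2 was silent by the same measure (chr2:178345295-178407776). Its 39 probesets, the most of any member, gave levels from 3.85 to 4.36 on KR arrays (median 3.93) and from 3.83 to 4.17 on KHR arrays (median 3.99). The difference was -0.01 ± 0.10 (SE), and 26 of the 39 were below the probeset reference on all arrays. Probeset 17395457 was above it on all 6 KR and all 6 KHR arrays, at means of 7.94 and 8.16. Probeset 17395448 was above it on 6 KR and 3 KHR arrays, at 6.70 and 5.75.

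Sycp3, the partner of Sycp2 in the axis (chr10:88459587-88473236), was below the reference on all KR arrays and on most KHR arrays. It ran from 4.24 to 4.85 on KR arrays (median 4.63) and from 4.51 to 5.35 on KHR arrays (median 5.08). The groups overlapped through 1 array only: KHR 2 stood at 4.51, and the other KHR arrays stood at 5.05 or more, above every KR array. The means were 4.61 ± 0.23 and 5.06 ± 0.29 (SD, n = 6 each), a difference of 0.44 ± 0.14 (SE). Leaving out single arrays gave 0.37 to 0.55, with 0.55 without KHR 2. The difference was 0.30 with the mean over the probesets and 0.16 with median polish. Sycp3 exceeded the reference on none of the KR and 2 of the KHR arrays. Of silent genes, 81.6% had a lower KR mean and 94.6% a lower KHR mean. Probesets 17236370 and 17236372 carried the difference, at 1.03 and 1.25, and the other 5 differed by -0.21 to 0.18. Probeset 17236368 was above the probeset reference on all 6 KR and all 6 KHR arrays, at means of 6.20 and 6.38. A further 3 probesets that the annotation gives to both Sycp3 and its neighbour Chpt1 were not used in the gene value; they differed by 0.74, 0.88 and 1.74, all with overlapping groups.

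Hormad1, the axis protein that recruits the break machinery (chr3:95559677-95587863), was the most variable member. It ran from 4.30 to 5.68 on KR arrays (median 5.19) and from 4.36 to 5.14 on KHR arrays (median 4.93), a difference of -0.21 ± 0.23 (SE). It was above the reference on 3 KR arrays and 1 KHR array. Its SD within groups was 0.45, larger than that of 92.7% of all genes, where that of Zcwpw1 was 0.20. None of its 9 probesets separated the groups. Probeset 17400387 was above the probeset reference on all 6 KR and all 6 KHR arrays, at means of 7.41 and 7.40.

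**Figure D2:**
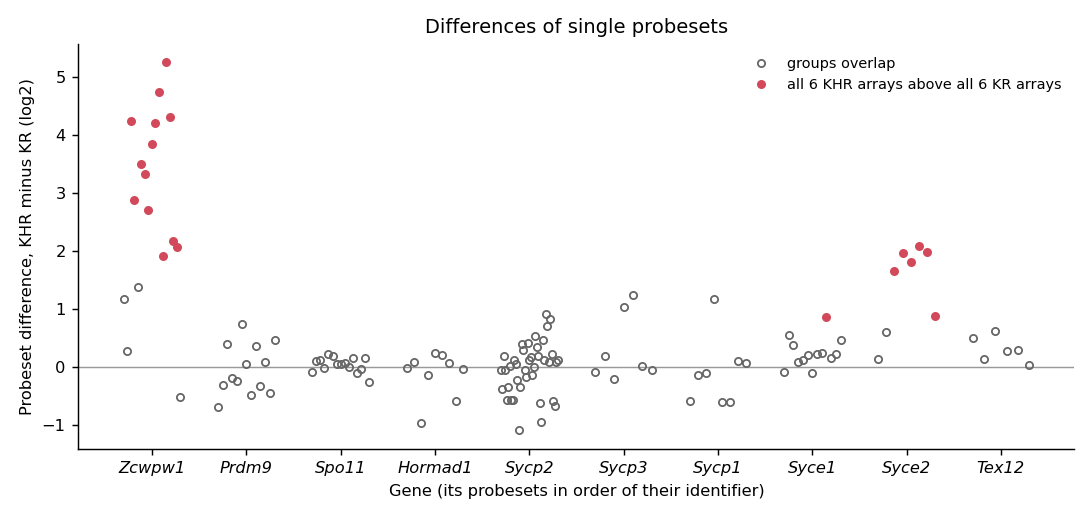
Difference between the group means (KHR minus KR, log2, vertical axis) of each of the 135 probesets of the 10 genes, in order of identifier; filled points have all 6 KHR arrays above all 6 KR arrays. Of the 20 filled points, 13 belong to Zcwpw1, 6 to Syce2 and 1 to Syce1.

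Counted over all 10 genes, 20 of 135 probesets had all KHR arrays above all KR arrays, where 1.09% of all probesets did, and none had them all below, where 0.694% did. The 8 members other than Zcwpw1 and Syce2 held 110 of the probesets, of which 1 separated the groups, a share near that of all probesets, and 65 were below the probeset reference on all 12 arrays. No probeset of these 8 was above the reference on all KHR arrays and on no KR array.

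**Figure D3:**
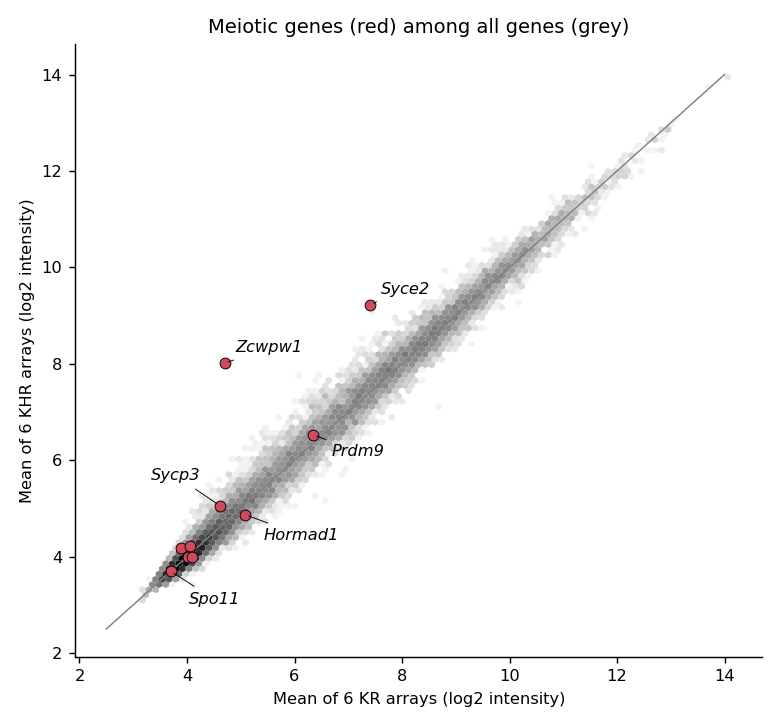
Mean of the 6 KHR arrays against the mean of the 6 KR arrays (both log2 intensity) for 23102 genes in grey, shaded by the number of genes on a log scale, and for the 10 meiotic genes in red. Zcwpw1 and Syce2 lie far above the line of equal levels, and the other 8 lie within the cloud near it.

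The profile over the 12 arrays was compared with that of every gene, after each gene's own mean was subtracted. The 3 genes closest to Zcwpw1 by root mean square distance were Ina, of neural intermediate filaments (distance 0.36), Ulbp1, of the NKG2D ligands (0.38), and Tdrd1, of the piRNA pathway (0.45), where the median gene was at 1.68. The 3 closest to Syce2 were Nes, of neural intermediate filaments (0.26), Prim1, the primase subunit (0.28), and Rfc3, of the clamp loader (0.30), where the median gene was at 0.96. Both members differ between the groups, so genes with a difference of like size come first by this measure.

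The 12 genes besides Zcwpw1 that were below the reference on all KR arrays and above it on all KHR arrays are named after their values were seen, and no theme was tested over them. Among them were Stag3, the cohesin subunit of meiotic axes, Tdrd1, of the piRNA pathway, the RNA-binding Rbm46, the RNA helicase gene Ddx43 and Tcfl5, a transcription factor gene. All 12 were picked by their levels on these same arrays, so a p-value from the same arrays is no support for them. Tcfl5 went from 4.48 ± 0.22 to 5.82 ± 0.41 (SD, n = 6 each) and Ddx43 from 4.58 ± 0.23 to 5.79 ± 0.32. The others were Ina, Gm17660, Wnk3, Zfp287, Trh, Lrat and A930015D03Rik. The last differed by 0.39 and did not pass in the limma fit (adjusted p = 0.123).

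Other genes of meiosis were read from a list of 51 with textbook roles, of which 47 were measured. Of these, 5 rose, none fell and 42 did not pass (limma, adjusted p under 0.05 over all genes), where 2.71% of all genes rose. At an unadjusted p under 0.05, 7 were higher and 1, Ewsr1, lower. The share of all genes at that unadjusted p was not counted, and the 2.71% does not apply to it. Nothing is read from such counts here or below. The median difference was 0.05, against 0.0045 over all genes. Of the 47, 33 were below the silent reference on all 12 arrays, where 43.4% of all genes were. The list includes Stag3 and Smc1b, whose rise was known when it was written.

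Among the 4 meiotic cohesin genes, Stag3 and Smc1b rose. Stag3 stood between 4.24 and 4.58 on KR arrays and between 8.52 and 9.09 on KHR arrays, a difference of 4.37 ± 0.11 (SE; limma adjusted p = 2.52e-11). Smc1b, the meiotic ring subunit, stood between 3.69 and 3.88 on KR arrays and between 4.14 and 4.92 on KHR arrays, 0.70 ± 0.13 higher (adjusted p = 0.00768), but it was below the reference on all 12 arrays. The kleisin genes Rec8 and Rad21l, which close the meiotic ring, differed by 0.09 and -0.02 and were below the reference throughout.

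Iho1, which helps to start break formation together with Hormad1, was the second gene of the list by size. It ran from 4.58 to 5.00 on KR arrays and from 5.42 to 6.42 on KHR arrays. All KHR arrays lay above all KR arrays, and the difference was 1.22 ± 0.15 (SE; limma adjusted p = 0.000697). No other gene of break formation passed among the 8 measured, where 3.74% of all genes passed in either direction. Mei1, Mei4 and Rec114, partners in the break machinery, differed by 0.05, -0.10 and 0.07 and were below the reference on all arrays. Ewsr1, a widely expressed RNA-binding protein that also binds Prdm9, differed by -0.39 ± 0.14 (adjusted p = 0.167).

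Trip13, an ATPase that removes Hormad1 from chromosome axes and also acts in the mitotic spindle checkpoint, rose by 0.73 ± 0.15 (SE; limma adjusted p = 0.0155). It was above the reference on all 12 arrays, with KR values from 6.12 to 6.88 and KHR values from 6.96 to 7.55. Of the synaptonemal genes on the list, Syce3, Sycp2l and Six6os1 (listed as 4930447C04Rik) differed by 0.08, -0.13 and -0.02. Terb1, which ties meiotic telomeres to the nuclear envelope, rose by 0.55 ± 0.14 (adjusted p = 0.0460). Without KR 2 its adjusted p was 0.106, and 8 other arrays also ended the call when omitted singly, as did 6 other settings, the Xist covariate among them.

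No gene of strand exchange, crossover or meiotic entry passed, among 9, 10 and 5 measured. Over all genes 3.74% passed in either direction, so counts of 0 in sets this small are near that share. At an unadjusted p under 0.05 there were 1 (Tex15), 0 and 1 (Ythdc2). The recombinase Dmc1 differed by 0.05 ± 0.10 (SE) and the crossover genes Msh4 and Hfm1 by 0.04 and -0.10, all below the reference on all arrays. Tex15, a germ cell gene of break repair and of transposon silencing, differed by 0.66 ± 0.23 (limma adjusted p = 0.161). It passed with the mean over probesets (adjusted p = 0.0108), with median polish (0.0127) and without KHR 1 (0.0395). Ythdc2, an RNA helicase of meiotic entry that other cells also express, differed by 0.75 ± 0.23 (adjusted p = 0.0993) and passed without KHR 1 (adjusted p = 0.00839). Stra8, which opens the meiotic programme, differed by -0.05 and Dazl, of germ cell RNA control, by -0.14 ± 0.09 (adjusted p = 0.502).

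**Figure D4:**
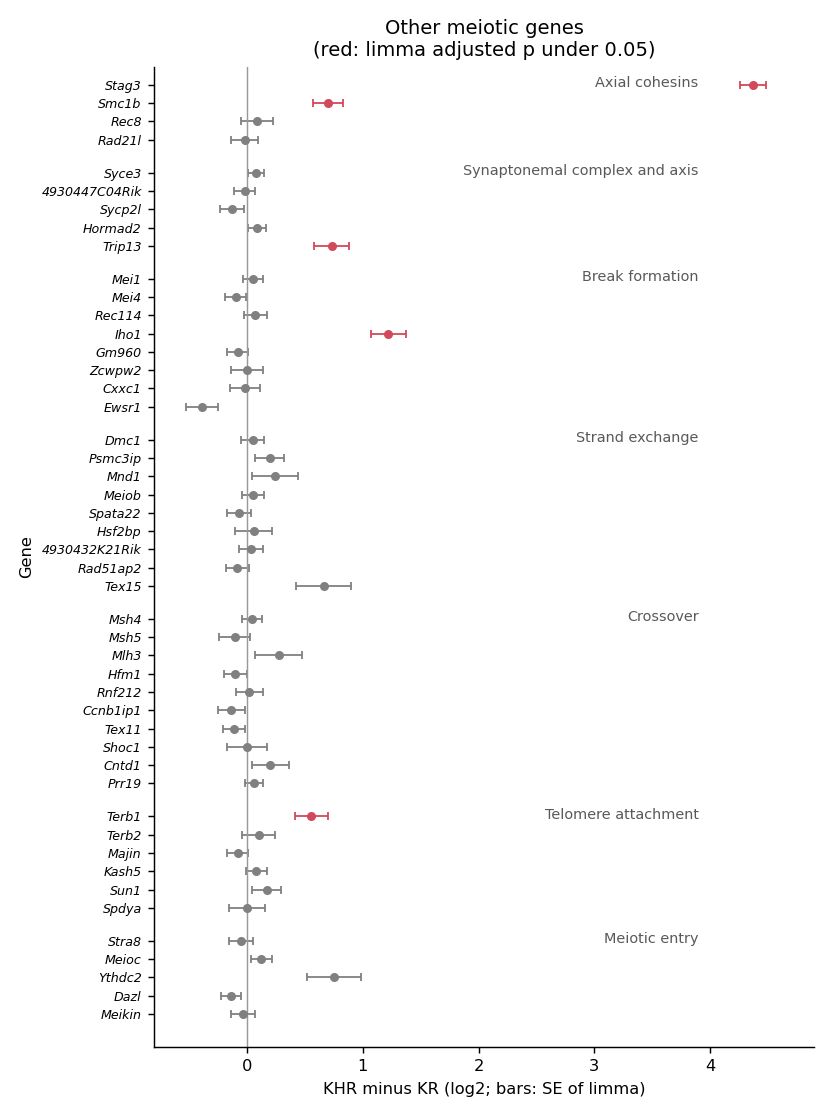
Difference between the groups (KHR minus KR, log2, horizontal axis, with the SE of limma) for the 47 measured genes of the meiosis list, grouped by role; red points passed the threshold. Stag3 (4.37) and Iho1 (1.22) lie furthest from 0, and 42 genes did not pass.

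Most markers of germ cells were at the silent level. Of 14 germ cell markers, 12 were below the reference on all 12 arrays, where 43.4% of all genes were. Among these markers were the sperm chromatin genes Prm1, Prm2, Tnp1 and Tnp2 and the oocyte genes Zp3, Gdf9 and Figla. The exceptions were Tdrd1, which rose by 2.84 ± 0.21 (SE; limma adjusted p = 7.19e-06), and the RNA helicase gene Ddx4, which was above the reference on KHR 2 only, at 6.38, against 4.00 to 4.86 on the other KHR arrays. The mean of the 14 markers ran from 4.00 to 4.12 on KR arrays and from 4.10 to 4.37 on KHR arrays. It includes the large difference of Tdrd1, and the median difference of the 14 was -0.09. At an unadjusted limma p under 0.05, 1 was higher, Tdrd1, and 1 lower, Prm2, at -0.47.

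Markers of other cell types were read as well, and most of those past the threshold were genes of dividing cells. Of 9 measured genes of dividing cells, 8 rose, where 2.71% of all genes did, and the mean of the 9 ran from 9.01 to 9.32 on KR arrays and from 9.88 to 10.18 on KHR arrays. Mki67, the proliferation marker, rose by 0.66 ± 0.13 (SE; limma adjusted p = 0.00998). The mean of 6 immune markers ran from 6.29 to 6.89 on KR and from 6.91 to 7.21 on KHR arrays, without overlap. The 6 contributed unequally: S100a8 differed by 1.08, Cd68 by 0.53, Csf1r by 0.27, Cd79a by 0.19, Ptprc by 0.14 and Cd3e by -0.16. No member passed the threshold, and 3, Cd68, S100a8 and Cd79a, were higher at an unadjusted p under 0.05. The T and B cell genes Cd3e and Cd79a were below the reference on all 12 arrays. The mean of 7 keratinocyte markers ran from 11.89 to 12.18 and from 11.83 to 12.26. One member, Krt13, a keratin of the upper layers of oral epithelium, fell by 1.26 (limma adjusted p = 0.00571), and Epcam, an epithelial adhesion protein, differed by 0.88 (adjusted p = 0.0670). Of 6 fibroblast markers, the collagen gene Col1a2 fell by 0.80 (limma adjusted p = 0.0220) and Col1a1 differed by -0.63 (adjusted p = 0.0743). Col3a1 and Lum differed by -0.44 and -0.15, and Pdgfra and Dcn by 0.58 and 0.64. The mean of the 6 ran from 8.46 to 9.95 on KR arrays and from 8.65 to 9.62 on KHR arrays. Over all genes 1.03% passed as lower. None of 3 endothelium markers passed. None of 8 muscle markers passed, and 1, Des, was higher at an unadjusted p under 0.05. Their mean ran from 6.05 to 7.32 on KR arrays and from 6.08 to 8.41 on KHR arrays, highest on KHR 5, and the median difference of the 8 was 0.62. The part of these cells in the levels of Zcwpw1 and Syce2 was not tested, and in bulk tissue more cells of a type and more RNA per cell cannot be told apart. The female transcript Xist was high on 2 KR and 4 KHR arrays; with its level as a covariate the differences of Zcwpw1 and Syce2 were 3.31 and 1.82.

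Genes next to Zcwpw1 and Syce2 were read in the order of GRCm38.p6. Of the 10 measured genes on each side of Zcwpw1 on chromosome 5, none passed in either direction (limma, adjusted p under 0.05; 0 also under each of the 21 other fits). At an unadjusted p under 0.05, 1 was higher, Pilrb2, and none lower. Over all genes 3.74% passed in either direction, so a count of 0 in 20 is near that share. Its immediate neighbours Mepce, which modifies the small RNA 7SK, and Pilra, an inhibitory receptor of myeloid cells whose span overlaps the end of Zcwpw1, differed by 0.25 ± 0.17 and 0.30 ± 0.17 (SE; adjusted p = 0.529 and 0.424). Stag3 (chr5:138272514-138312397) lay outside this set, with 23 measured genes between it and Zcwpw1.

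Of the 20 genes around Syce2 on chromosome 8, chosen after the data were seen, 1 rose and none fell, a count near the 2.71% of all genes that rose. The counts at an unadjusted p under 0.05 were also 1 and 0. The gene was Gcdh, a mitochondrial enzyme of lysine breakdown whose span (chr8:84886387-84893921) overlaps the end of Syce2. Gcdh ran from 6.19 to 6.63 on KR arrays and from 6.62 to 7.28 on KHR arrays, a difference of 0.56 ± 0.13 (SE; limma adjusted p = 0.0237), and the groups overlapped. The call was lost without KR 2, KR 5, KR 6 or KHR 4, with the mean over probesets, with the replicate block and with eBayes with trend. The neighbour on the other side, Farsa, a subunit of a transfer RNA synthetase, differed by -0.24 ± 0.18 (adjusted p = 0.587).

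**Figure D5:**
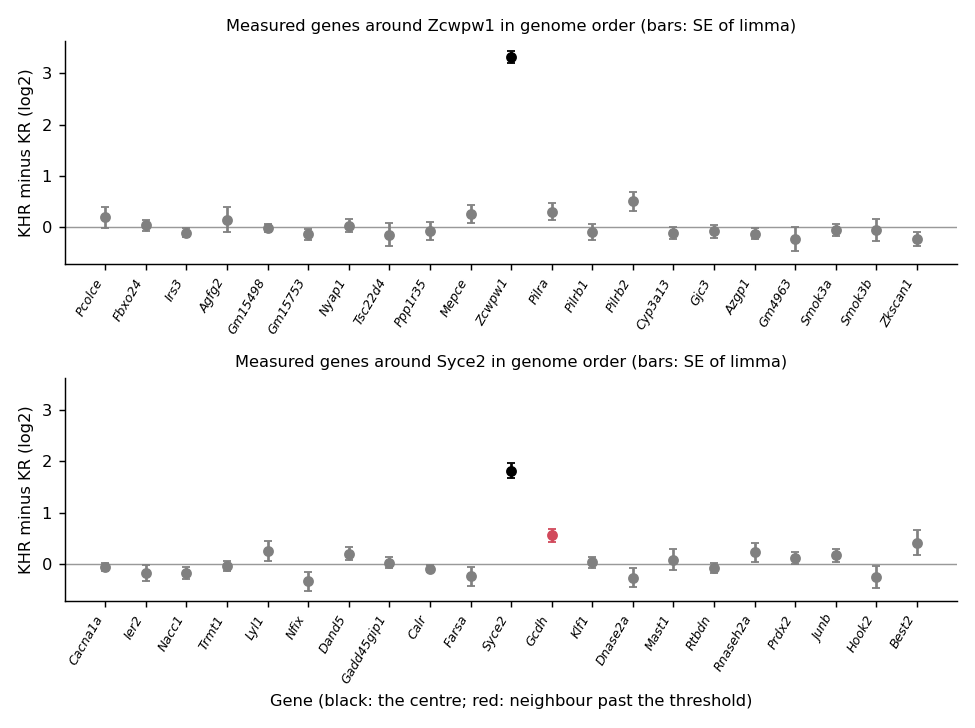
Difference between the groups (KHR minus KR, log2, vertical axis, with the SE of limma) for the 10 measured genes on each side of Zcwpw1 (top) and Syce2 (bottom) in genome order. The 2 centres (3.31 and 1.82) stand above all of their neighbours, of which Gcdh, in red, passed the threshold.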

How the data were processed

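The deposited values were log2 intensities, 1 per probeset and array (269751 probesets, 12 arrays), from the authors; Partek is named without a version in the submitters' processing notes. How the background was corrected, how arrays were normalized and which build was used is not given in the sources used here. The log base was inferred from the spread of values. Array medians lay between 5.62 and 5.75. The highest correlation between 2 arrays was 0.97.

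GEO's platform annotation named the probesets, 233753 with 1 symbol, 5106 with several and 30892 with none; of 23152 symbols, 2247 were updated and 30 kept unmatched through RefSeq synonyms (GRCm38.p6). Gene values were medians of log2 values over probesets with 1 symbol. All 23102 genes were fitted with limma 3.58.1 in R 4.3.3 (lmFit, eBayes; 6 KR against 6 KHR arrays, no covariate, no filter), two-sided, with Benjamini-Hochberg adjustment over all genes and a threshold of 0.05. The fit was tested on simulated data. Tables were made in Python 3.11.15 with pandas 2.3.3 and numpy 2.4.6, figures with matplotlib 3.10.9.

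The members and lists were chosen with earlier results of these data known. Named were all members; of the meiosis list, the genes past the threshold and the 4 others of smallest p, beside examples by role; of the neighbours of Zcwpw1, those past the threshold and the adjacent 2; and for members with a difference of 1 or more, the 3 genes of most similar profile. The meiosis genes Ankrd31, Rnf212b, Spo16 and Meiosin and the marker Ccnb1 are not analysed here. Alternatives were the mean and median polish over probesets, 2 scalings, filters, the replicate number as a block, Xist as a covariate, eBayes with trend, other silent references and leaving out each array.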

Additional observations from a re-analysis of the deposited data

Results flagged for a closer look

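In 25 named genes, each with 2 groups of 6 arrays, 7 of 50 groups held an array that stood apart from the rest, its gap to the nearest array exceeding Dixon's critical value; chance gives about 1 in 20 groups. KHR 2 was that array 3 times. On it Zcwpw1 was at 7.65, the lowest of its group with the next at 8.02, Sycp3 was at 4.51 with the next at 5.05, and Prim1 was at 9.43, the highest with the next at 9.16. KR 4 was the lowest of its group for Zcwpw1, at 4.31 with the next at 4.72, and the highest for Stag3, at 4.58 with the next at 4.37, both at the silent level. Ythdc2 was at 6.75 on KHR 1, with the next at 7.60. Ina was at 3.76 on KR 1, with the next at 4.39.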

How the results depend on the processing

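With the mean over probesets the differences of Zcwpw1 and Syce2 were 2.79 and 1.39, and with median polish those of Zcwpw1 and Sycp3 were 2.91 and 0.16; under both summaries 0 members were above the silent reference on all KHR and no KR arrays, since Zcwpw1 exceeded it on at least 1 KR array. With the 99th percentile of silent genes, 1 member, Syce2, was above it on all KR arrays, and Prdm9 no longer was. Leaving out single arrays gave 3.23 to 3.38 for Zcwpw1 and 1.73 to 1.90 for Syce2. The count over all genes (625 higher, 238 lower) was 973 and 472 with the mean over probesets, 424 lower with median polish, 416 and 139 with the Xist covariate, and 400 to 797 higher and 123 to 288 lower on leaving out single arrays. Of the meiosis list, 3 genes rose among the 12 above the median level, and 4 to 7 on leaving out arrays. Dazl changed sign with median polish (0.0191). No neighbour of Syce2 passed with the mean over probesets, with eBayes with trend or with the replicate block (0 in each), and 0 to 1 passed on leaving out arrays. The cause of these shifts was not tested.

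The replicate number did not pair the arrays: same-numbered arrays correlated at -0.00 to 0.23 in their deviations, and 2 of 6 KR arrays correlated best with their own number. With the replicate block 668 genes were higher and 257 lower, and 4 of the meiosis list, Terb1 being lost (adjusted p = 0.0634). The silent reference has no fit, so the block, the Xist covariate and the filters give it no value. Without detection calls, changes near the silent level have no exact size.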
